A study of Saccharomyces cerevisiae with 10 samples.

Results

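The 8 genes of the cytosolic chaperonin CCT (also called TRiC) of *Saccharomyces cerevisiae* were taken by their systematic names: TCP1 (YDR212W), CCT2 (YIL142W), CCT3 (YJL014W), CCT4 (YDL143W), CCT5 (YJR064W), CCT6 (YDR188W), CCT7 (YJL111W) and CCT8 (YJL008C). They are 8 of the 5822 genes of the table, and each had a value on all 10 arrays. Budding yeast labelled delPPT1, that is, lacking PPT1 (which encodes an Hsp90 phosphatase), was hybridised at 0, 7, 15, 30 and 60 min of a hypo-osmotic shock, and wild type yeast at 0, 7, 16, 30 and 60 min. There was 1 two-colour array for each strain and time, with the sample's total RNA in one channel and a reference in the other. Neither the strain background, the media nor the reference's source is given in these labels.

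CCT is a ring-shaped, ATP-driven folding chamber of the cytosol. Each ring holds one copy of each of the 8 related subunits, TCP1 being the alpha subunit and CCT2 to CCT8 the beta to theta subunits, and all are essential in yeast. It is best known for folding actin and the tubulins, which the prefoldin complex delivers to it, and it also folds several WD-repeat proteins. In the yeast ring TCP1, CCT2, CCT4 and CCT5 lie on the side that binds ATP more strongly, and CCT3, CCT6, CCT7 and CCT8 lie on the other side.

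Values are log2 ratios of a gene on an array, likely sample over reference, after each array was centred on its own median, so that 0 stands for the median gene. A ratio of one gene is not set against that of another as a level. The log base and the direction are not stated in the labels; a turned ratio would turn every direction below. Single array values have no replicate error. The arrays held 5440 to 5807 genes with a value. Values with 4 decimals made up 43% of the wild type array at 0 min (CCT3 alone among the subunits) and 0% of the other 9. The level of PPT1 itself goes against the label: it ranged from -0.55 to 0.40 on the arrays labelled delPPT1, against -0.50 to 0.07 on the wild type arrays, with a fitted difference of 0.19 ± 0.13 (SE; limma adjusted p = 0.417). The mutant is therefore named by its label throughout. No unshifted culture was followed, so changes after the shift and changes with time cannot be told apart. Since separate cultures are not stated, each p-value reflects array-to-array spread, which may be technical. With 1 array per strain and time, that spread in the fit of strain and time also holds any difference in course between the strains.

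Across both strains and all times the CCT transcripts moved little. The standard deviation over the 10 arrays lay between 0.061 for TCP1 and 0.248 for CCT2, with a median of 0.147 over the 8 subunits and 0.198 over the 4901 genes with all 10 values. For 7 of the 8 subunits it was below the median gene, CCT2 being the exception. TCP1 stood out in this respect, since 3 of the 4901 genes varied less and its highest and lowest arrays differed by 1.15-fold. Without centring, with quantile normalization and with scaling by the median absolute deviation, 8, 11 and 9 genes varied less than TCP1. CCT2 had the widest range of the subunits, 1.65-fold, and the other 6 ranged over 1.32-fold to 1.45-fold.

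**Figure D1:**
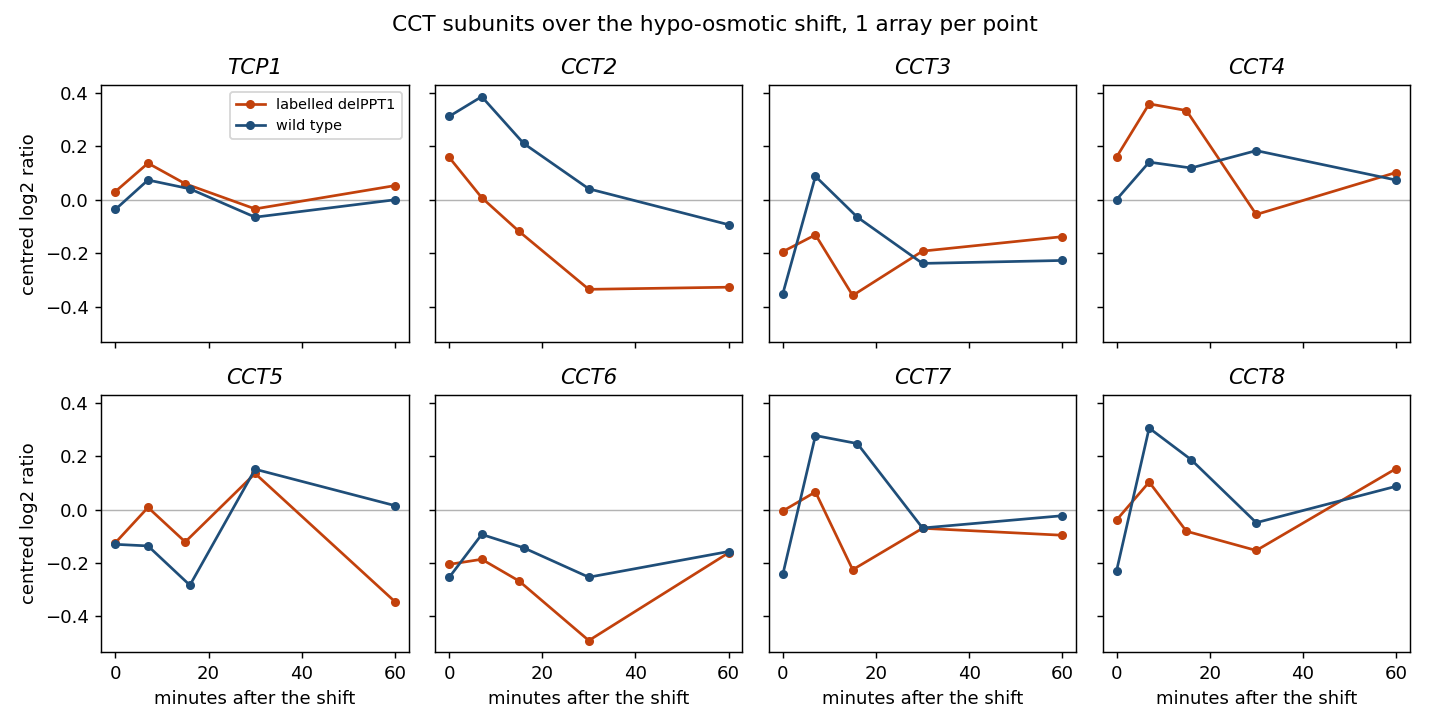
Centred log2 ratio (vertical axis) of each CCT subunit against minutes after the shift (horizontal axis), with 1 array per point and lines joining the arrays labelled delPPT1 (orange) and the wild type arrays (blue). CCT2 declines in both strains and lies lower on the arrays labelled delPPT1 at each time, TCP1 stays between -0.07 and 0.14, and CCT3, CCT7 and CCT8 share a peak at 7 min in the wild type.

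On the side of the ring that binds ATP more strongly, TCP1 had a like course in both strains. Its values at 0, 7, 15, 30 and 60 min were 0.03, 0.14, 0.06, -0.03 and 0.05 on the arrays labelled delPPT1, and -0.04, 0.07, 0.04, -0.07 and 0.00 at 0, 7, 16, 30 and 60 min on the wild type arrays. It was highest at 7 min and lowest at 30 min in each strain. The array labelled delPPT1 was the higher in 5 of 5 matched pairs, but by 0.02 to 0.07, and 12% of all genes were higher in 5 of 5 pairs.

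CCT2 declined over the hour. It stood at 0.16, 0.01, -0.12, -0.34 and -0.33 at 0, 7, 15, 30 and 60 min on the arrays labelled delPPT1, against 0.31, 0.39, 0.21, 0.04 and -0.09 at the matched times on the wild type arrays. The 30 and 60 min arrays were the lowest pair in each strain. CCT2 was lower on the array labelled delPPT1 in 5 of 5 pairs, by 0.15 to 0.38, although the ranges of both strains overlapped. Of all genes 11.2% were lower in 5 of 5 pairs.

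CCT4 had values of 0.16, 0.36, 0.33, -0.06 and 0.10 on the arrays labelled delPPT1 and of 0.00, 0.14, 0.12, 0.18 and 0.07 on the wild type arrays, in order of time. Its fall between 15 and 30 min was seen on the arrays labelled delPPT1 and had no counterpart in the wild type. CCT5 had values of -0.12, 0.01, -0.12, 0.14 and -0.34 on the arrays labelled delPPT1 and of -0.13, -0.14, -0.28, 0.15 and 0.02 on the wild type arrays. Its highest value came at 30 min in both strains, the time at which CCT6 was lowest on the arrays labelled delPPT1.

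On the other side of the ring, CCT3, CCT7 and CCT8 had similar courses. CCT3 stood at -0.19, -0.13, -0.36, -0.19 and -0.14 on the arrays labelled delPPT1, against -0.35, 0.09, -0.07, -0.24 and -0.23 on the wild type arrays. CCT7 stood at -0.01, 0.07, -0.23, -0.07 and -0.10 on the arrays labelled delPPT1, against -0.24, 0.28, 0.25, -0.07 and -0.02 on the wild type arrays. CCT8 stood at -0.04, 0.10, -0.08, -0.15 and 0.15 on the arrays labelled delPPT1, against -0.23, 0.31, 0.19, -0.05 and 0.09 on the wild type arrays. In the wild type all 3 were lowest at 0 min and highest at 7 min, a difference of 0.44 for CCT3, 0.52 for CCT7 and 0.53 for CCT8. On the arrays labelled delPPT1 the same difference was 0.06, 0.07 and 0.14. Each of these differences rests on 1 array per time. The mean change of all the subunits from 0 to 7 min was 0.25 in the wild type, and 17.7% of all genes rose at least as much. On the arrays labelled delPPT1 that mean was 0.07, which 36.3% of all genes reached. CCT6 stood at -0.21, -0.19, -0.27, -0.49 and -0.16 on the arrays labelled delPPT1, against -0.25, -0.09, -0.14, -0.25 and -0.16 on the wild type arrays, below 0 on each of the 10.

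The first question was whether the subunits differed by strain. In limma's fit of strain and time to all 10 arrays, 0 of the 8 subunits passed an adjusted p of 0.05, against 3.8% of all genes, and 1 of 8 had an unadjusted p under 0.05, against 23.2%. That subunit was CCT2, at -0.29 ± 0.08 (SE), 1.23-fold lower with the delPPT1 label (95% interval -0.47 to -0.12), with limma adjusted p = 0.0638. When the fit was limited to the 4901 genes with all 10 values, the same CCT2 difference had limma adjusted p = 0.0483 and passed. In that fit 351 of the 4901 genes passed in either direction. Of these 4901 genes 6.37% had a strain difference as low as that of CCT2. The other 7 subunits had differences between -0.10 for CCT7 and 0.08 for CCT4, with adjusted p from 0.571 to 0.952. Over the 8 subunits the median was -0.05, against 0.01 over all genes. The intervals bound the strain difference of each subunit: the lowest bound was that of CCT2, 1.39-fold lower, and the highest was that of CCT4, 1.22-fold higher.

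**Figure D2:**
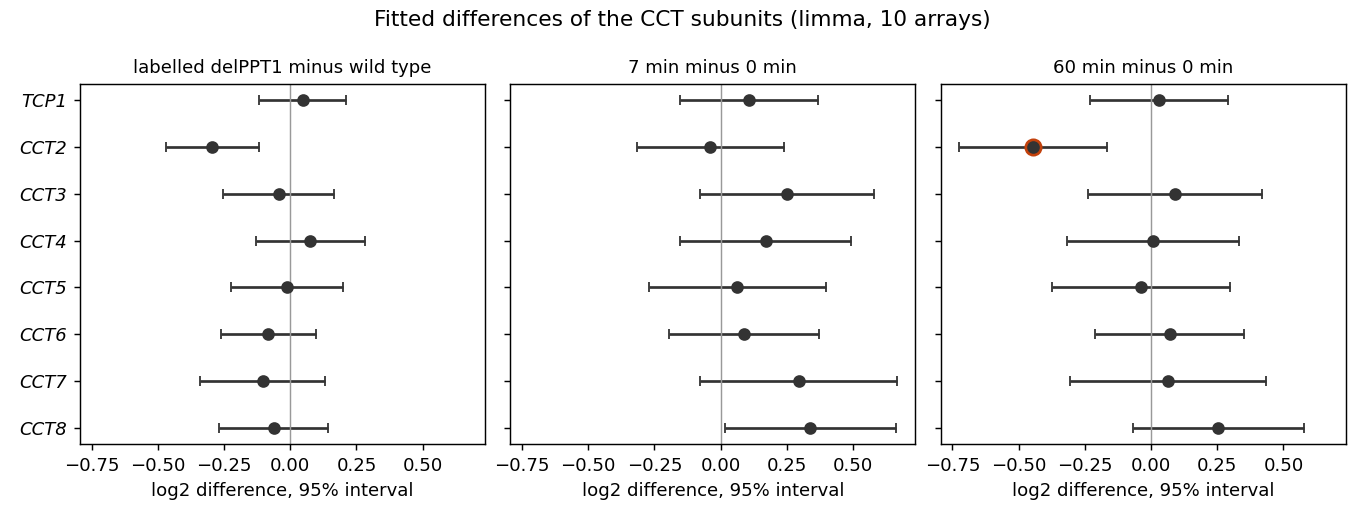
Fitted log2 differences (horizontal axis) of each CCT subunit (vertical axis) from limma over 10 arrays, for the arrays labelled delPPT1 minus wild type, 7 min minus 0 min and 60 min minus 0 min. Points are estimates, bars are 95% intervals, and the ringed point passed an adjusted p of 0.05. CCT2 at 60 min (-0.45) is the one that passed.

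Time after the shift was examined over both strains. At 7 min 7 of the 8 subunits had positive changes from 0 min, with a median of 0.14, against -0.01 over all genes. None passed (0 of 8 against 3.02% of all genes), and 1 had an unadjusted p under 0.05, against 16.2%, CCT8 at 0.34 ± 0.14 (limma adjusted p = 0.286). CCT7 (0.29 ± 0.17) and CCT3 (0.25 ± 0.15) were next in size. The largest rise that the intervals allow at 7 min was 1.59-fold, for CCT7. At 15-16 min 0 of 8 passed, against 7.18% of all genes, with 0 at an unadjusted p under 0.05, against 22.3%. At 30 min 0 of 8 passed, against 11.4%, with CCT2 at -0.38 ± 0.12 (limma adjusted p = 0.0763) the 1 with an unadjusted p under 0.05, against 27.9%.

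At 60 min CCT2 was lower than at 0 min by 1.36-fold, at -0.45 ± 0.12 (95% interval -0.72 to -0.17, limma adjusted p = 0.0451). As higher 0 of the 8 subunits passed, although 6 had positive changes. Over all genes 8.38% passed as lower and 3.97% as higher, so that 1 of 8 is near the background. The change was -0.49 on the arrays labelled delPPT1 and -0.41 on the wild type arrays. Its adjusted p was 0.0815 without centring, 0.0861 with quantile normalization and 0.0684 with scaling by the median absolute deviation, and it lay above 0.05 when 8 of the 10 arrays were left out in turn, up to 0.255 without the 0 min array labelled delPPT1. The other 7 subunits lay between -0.04 for CCT5 and 0.25 for CCT8 at 60 min. The F test of any change over time passed 0 of 8 subunits, against 8.98% of all genes, with CCT2 (limma adjusted p = 0.109) the 1 with an unadjusted p under 0.05, against 25.3%.

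The response of the strains was then compared. Before the shift 7 of the 8 subunits were higher on the array labelled delPPT1 than on the wild type array, with a mean difference of 0.09. At 7, 15-16, 30 and 60 min 5, 5, 6 and 4 of the 8 were lower, and the mean difference was -0.09, -0.14, -0.11 and -0.05. Over all genes the median difference stayed between -0.004 and 0.02 at the 5 times. The strain difference after the shift minus that at 0 min was accordingly negative for all 8 subunits, from -0.43 ± 0.24 for CCT7 to -0.02 ± 0.25 for CCT5, with a median of -0.17. None passed (limma adjusted p of at least 0.993), nor did any gene of the table (0%), while 0 of the subunits and 273 of all genes (4.71%) had an unadjusted p under 0.05. The shared sign rests on the same pair of 0 min arrays for all 8 subunits. The 95% interval of CCT7 ran from -0.96 to 0.11, and the lowest bound over the 8 subunits was 1.95-fold.

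The second question was whether the subunits were co-regulated. Over the 10 arrays the 28 pairs of subunits had a median Pearson r of 0.33, ranging from -0.58 for CCT5 with CCT6 to 0.92 for CCT3 with CCT7, and 20 of the 28 were above 0. Among all pairs of the 4901 genes the median was -0.001, 49.9% were above 0 and 22.2% reached the subunits' median. The arrays are shared by all genes and are not independent, so these values describe the arrays and carry no p. The median fell to 0.14 without the wild type 7 min and the delPPT1-labelled 30 min arrays, the 2 farthest from the median of the subunits' mean. Within the 5 arrays labelled delPPT1 it was 0.31, and within the 5 wild type arrays 0.45.

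The 8 subunits did not follow one course. CCT5 had Pearson r below 0 with each of the other 7 (-0.03 to -0.58), although with CCT4 rho was 0.12 and the residual r 0.41, and without it 20 of the 21 remaining pairs were above 0, with a median of 0.46. CCT3, CCT7 and CCT8 had the highest Pearson r among themselves, 0.92, 0.86 and 0.82. By Spearman rho the highest pair was CCT6 with CCT8 (0.93), above the 0.78 to 0.83 among these 3. A value of 0.82 or more was reached by 0.7% of all gene pairs. CCT3, CCT7 and CCT8 were picked for their high r on these same arrays, so this share and the next are a description only. After the strain and time terms were removed, r among these 3 was at least 0.89, which 2.72% of all gene pairs reached, the residuals having only 4 degrees of freedom. The lowest r among the 3 was 0.36 within the arrays labelled delPPT1, against 0.95 within the wild type arrays, and 0.77 without the wild type 0 min array. The difference between strains was not tested.

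**Figure D3:**
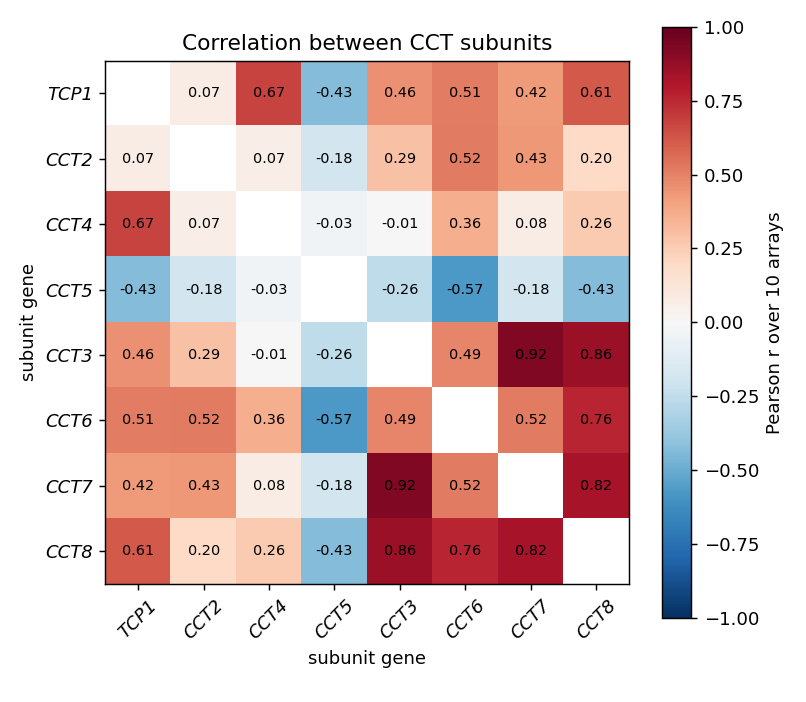
Pearson r over the 10 arrays (colour scale and printed values) for each pair of CCT subunits, both axes listing TCP1, CCT2, CCT4 and CCT5 before CCT3, CCT6, CCT7 and CCT8. The lower right block reaches 0.92, the upper left block reaches from -0.43 to 0.67, and CCT5 is negative throughout.

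The pairs were also grouped by the sides of the ring, a division chosen after the correlations were seen and given as a description. The 6 pairs among CCT3, CCT6, CCT7 and CCT8 had r of 0.49 to 0.92 with a median of 0.79 (Spearman rho 0.71 to 0.93). The 6 pairs among TCP1, CCT2, CCT4 and CCT5 had r of -0.43 to 0.67 with a median of 0.02, led by TCP1 with CCT4. The 16 pairs between the sides had a median of 0.28. Without the same 2 arrays the medians within the sides were 0.87 and -0.07. After the strain and time terms were removed the pairs across the ring differed by subunit. CCT2 then had r of 0.88 with both CCT8 and CCT6, 0.67 with CCT3 and 0.61 with CCT7. TCP1 had 0.45 to 0.71 with the other side. CCT4 went the other way with CCT3 (-0.505), CCT7 (-0.357) and CCT8 (-0.139), but had 0.57 with CCT6. CCT5 stayed negative, from -0.681 with CCT3 to -0.355 with CCT6. On its own side CCT6 had 0.40 with CCT3 and 0.41 with CCT7.

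By their systematic names CCT3, CCT7 and CCT8 are genes of the left arm of chromosome X, with 4 measured genes named between CCT8 and CCT3 and CCT7 farther away. The part of position in their course was not tested. The 171 other genes of that arm had a median r of 0.03 with the mean of the 3 subunits, against 0.02 for 4722 genes elsewhere, and 0% of that arm's genes and 0.339% of the genes elsewhere reached 0.8. The genes between CCT8 and CCT3 had r of 0.14 for NOP9, 0.18 for RPC17, 0.12 for VTC4 and 0.17 for MAD3. CCT5 lies on the right arm of the same chromosome.

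The mean of the 8 subunits was lowest on the 30 min array labelled delPPT1 (-0.15) and highest on the wild type 7 min array (0.13). The 7 min array was the highest in each strain (0.05 with the delPPT1 label), and the lowest wild type array was that at 0 min (-0.12). Among 4893 other genes with all values, 21 reached r of 0.8 with this mean and 20 reached -0.8 or lower. The highest was GCD10 (0.904), which encodes a subunit of the tRNA m1A methyltransferase. TOR2, a growth-controlling kinase (0.896), RPN3 of the proteasome lid (0.895), KTI12, an Elongator-associated protein (0.89), BRX1 of large ribosomal subunit assembly (0.89), KRS1, lysyl-tRNA synthetase (0.87), RPN5, also of the proteasome lid (0.87), GFD1 of mRNA export (0.85), the unnamed YJR071W (0.84) and ARG80, a regulator of arginine genes (0.83), followed. Without the 2 arrays named above these 10 values lay between 0.62 and 0.88. None of the 10 passed the strain test (limma adjusted p from 0.103 to 0.991), against 3.8% of all genes.

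The partners and clients of CCT were tested in the same fits. Of the 27 genes in 5 lists (prefoldin, actin and tubulins, tubulin folding cofactors, WD-repeat clients and ribosome-bound chaperones) 25 were measured, ACT1 and CIN1 not being analysed here. In limma's strain comparison 0 of 25 passed, against 3.8% of all genes, and 4 had an unadjusted p under 0.05, against 23.2% of all genes. The 6 prefoldin subunits had strain differences from -0.16 for PAC10 to 0.12 for YKE2, with a median of 0.02. PAC10 lacked a value on the 30 min array labelled delPPT1, so that its fit rests on 9 arrays. Outside these lists PLP2, a phosducin-like protein that acts with CCT, stood at 0.13 ± 0.09. The tubulin genes TUB1, TUB2 and TUB3 stood at -0.22 ± 0.11, 0.14 ± 0.08 and -0.09 ± 0.09. None of the 4 WD-repeat clients (CDC20, CDH1, CDC55 and STE4) or of the 7 ribosome-bound chaperone genes passed in any comparison. Over all genes 3.02% to 12.3% passed in the strain and time comparisons. For the strain difference after the shift minus that at 0 min the share was 0%. Over time 1 of the 25 passed, the tubulin folding cofactor gene CIN2, higher at 30 min (0.64 ± 0.14, limma adjusted p = 0.0181) and 60 min (0.68 ± 0.14, limma adjusted p = 0.0129), against 11.4% of all genes passing at 30 min and 12.3% at 60 min. At 7 min TUB2 stood at -0.41 ± 0.13 (limma adjusted p = 0.142), and its r with the mean of the CCT subunits was -0.66. The prefoldin genes with all values had r of -0.44 for PFD1 to 0.47 for GIM5 with that mean.

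Among other chaperones the counts by strain differed from list to list. Past the threshold were 0 of 6 prefoldin and 0 of 7 ribosome-bound chaperone genes, against 3.8% of all genes. Of 11 genes of Hsp90 and its co-chaperones 7 were lower on the arrays labelled delPPT1, and of 9 Hsp70 and Hsp40 genes 4 were lower, against 2.06% of all genes. In the Hsp90 list these were the Hsp90 genes HSP82 (-0.60 ± 0.10) and HSC82 (-0.79 ± 0.08) and the co-chaperone genes STI1 (-0.95 ± 0.09), AHA1 (-0.77 ± 0.11), CPR6 (-0.66 ± 0.09) and SGT1 (-0.45 ± 0.08), with SBA1 (-0.40 ± 0.09) the smallest. In the other list they were the cytosolic Hsp70 genes SSA1 (-1.09 ± 0.12) and SSA2 (-1.07 ± 0.11) and the Hsp40 genes SIS1 (-0.97 ± 0.12) and YDJ1 (-0.74 ± 0.12). At 60 min HSP82 (0.69 ± 0.16), HSC82 (0.63 ± 0.13), STI1 (0.62 ± 0.14), SIS1 (1.27 ± 0.18) and FES1, an Hsp70 exchange factor (0.50 ± 0.14), were higher than at 0 min. They were 3 of 11 and 2 of 9 in their lists, against 3.97% of all genes. SSE2, another exchange factor, was lower at 15-16, 30 and 60 min (-1.05 ± 0.18 at 60 min), and the stress Hsp70 gene SSA4 was lower at 30 min (-0.58 ± 0.14). That made 1, 2 and 1 of 9 lower at 15-16, 30 and 60 min, against 5.62%, 7.8% and 8.38% of all genes. By strain the medians of the Hsp90 list and of the Hsp70 and Hsp40 list were -0.45 and -0.37, against -0.05 for CCT. These lists were drawn up with such results known and give no independent evidence of that direction, and the difference between lists was not tested. Of the mitochondrial chaperonin, the bacterial-type relative of CCT, HSP10 was lower on the arrays labelled delPPT1 (-0.37 ± 0.08, limma adjusted p = 0.0391) and at 15-16 min (-0.51 ± 0.12, limma adjusted p = 0.0368). HSP60 stood at -0.34 ± 0.09 between the strains (limma adjusted p = 0.0576). HSP10 was thus 1 of 2 in each comparison, against 2.06% of all genes lower by strain and 5.62% lower at 15-16 min. Of 31 measured proteasome genes, another complex of many different subunits, 3 were lower by strain, against 2.06% of all genes. They were SCL1 (-0.47 ± 0.08), RPN12 (-0.44 ± 0.10) and PRE5 (-0.38 ± 0.08). At 7, 15-16, 30 and 60 min 0 passed, against 3.02%, 7.18%, 11.4% and 12.3% of all genes. The median strain difference of the 31 was -0.19.

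**Figure D4:**
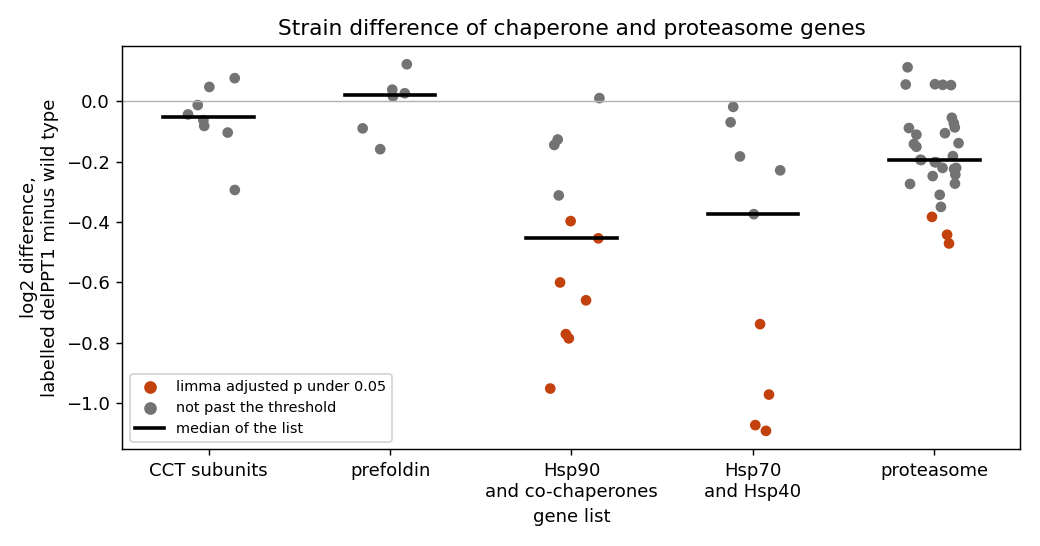
Fitted log2 difference, labelled delPPT1 minus wild type (vertical axis), of each gene in 5 lists (horizontal axis), with black bars at list medians and orange points past an adjusted p of 0.05. No CCT or prefoldin gene is orange, against 7 of 11 genes of the Hsp90 list and 4 of 9 of the Hsp70 and Hsp40 list. Over all genes 3.8% passed, 2.06% as lower.

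The same measure of co-variation was taken within the other lists, as a description of these arrays. The median pairwise r was 0.33 for the 8 CCT subunits, 0.59 for the 11 genes of the Hsp90 list, 0.36 for 8 Hsp70 and Hsp40 genes, 0.31 for 5 prefoldin genes and 0.23 for 27 proteasome genes. It was 0.27 for 5 tubulin folding cofactors, 0.24 for 5 ribosome-bound chaperone genes, 0.09 for 4 WD-repeat clients and -0.03 for the 3 tubulin genes, and HSP60 with HSP10 had r of 0.82. Pairs at 0.5 or more made up 32.1% of the CCT pairs, 56.4% of the Hsp90 pairs, 32.1% of the Hsp70 and Hsp40 pairs, 27.9% of the proteasome pairs, 10% of the prefoldin pairs and 11.2% of all gene pairs. Co-chaperones of Hsp90 that ran closest to the mean of the CCT subunits were CPR7 (r of 0.82) and CNS1 (0.75). SSA1, HSC82 and STI1, among the genes that differed most by strain, had r of 0.12, 0.06 and -0.04. Other genes of the Hsp90 list that were lower by strain had higher values, with SBA1 at 0.59, SGT1 at 0.485, CPR6 at 0.33 and AHA1 at 0.24, while HSP82 had -0.02.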

How the data were processed

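The authors deposited 1 table of log ratios, taken here as log2 ratios of the sample channel over the reference channel, 1 value per gene and array; no dye, background correction, normalization, base or software is stated in the labels or the file header. Direction was assumed, since the labels name channel 2 a reference but do not state the direction of the ratio. Systematic names were matched to a RefSeq gene table of assembly R64 (5358 of 5822 matched). No genome build was named, so no coordinates are given. Centring subtracted each array's own median. Additive terms for time point and strain were fitted with limma 3.58.1 (R 4.3.3) to all genes and all 10 arrays (4 residual degrees of freedom), the 15 and 16 min arrays being 1 time point, and a second fit added the strain difference after the shift minus that at 0 min (3 residual degrees of freedom). P-values were adjusted over all genes by Benjamini-Hochberg, with a threshold of 0.05, and the fit was tested on simulated data. Correlations are Pearson r over 10 arrays. The genes named are the 8 subunits, PPT1, the members past the threshold in 10 lists (at most 6 a list, by size) and the 10 genes most alike in course; further genes named beside them were chosen after their values were seen. One listed gene is not reported here. Members and lists were chosen with earlier results of these data known. Alternatives were other scalings, complete genes, robust empirical Bayes, no time term, and leaving out each array. The number of arrays limits the precision.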

Additional observations from a re-analysis of the deposited data

How the results depend on the processing

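The count of CCT subunits past an adjusted p of 0.05 stayed at 0 of 8 for the changes at 7, 15-16 and 30 min, for any change over time and for the interaction under each alternative that gave a value; the interaction could not be fitted without either 0 min array. For the strain difference it was 1, CCT2, with the genes that had all 10 values (351 of 4901 passed), and 0 otherwise. At 60 min it was 0 without centring, with quantile normalization and with scaling by the median absolute deviation, and 0 to 1 with each array left out in turn; CCT2 then lay between -0.53 and -0.36 and kept its direction. With each array left out in turn, the strain difference of CCT3 ran from -0.094 to 0.018, the highest without either 15-16 min array, and that of CCT5 from -0.056 to 0.074, the highest without either 60 min array, against -0.044 and -0.013 with all arrays; leaving out an array removes its whole matched pair from this term. The median strain difference stayed between -0.105 and -0.012, and the median pairwise r between 0.14 and 0.43. The comparison of scalings for TCP1 was added after seeing the data. No other subunit's strain difference changed direction or passed.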
